A study of Mus musculus with 8 samples.

Results

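The genes of the enzymes that write and erase methyl and acetyl groups on histone lysines were compared in the retinal pigment epithelium (RPE) of *Bbs8*-/- mice and of their *Bbs8*+/+ littermates at postnatal day 29 (P29). Members were chosen by symbol, as the autosomal genes named *Kdm*, *Kmt*, *Setd*, *Kat* or *Hdac* followed by a number, the *Suv39h*, *Nsd* and *Sirt* genes, and *Ezh1*, *Ezh2*, *Eed*, *Suz12*, *Ehmt1*, *Ehmt2*, *Dot1l*, *Ep300* and *Crebbp*. A gene also had to reach 1 CPM (its tags scaled to a common library size) in at least 4 of the 8 libraries. This gave 67 of the 12889 genes that met the same minimum, of which 37 were counted as writers and 30 as erasers. Of the 75 matching symbols in the count files, 6 lie on the sex chromosomes and were set apart, and 2 autosomal genes were below the minimum: *Kdm4d*, which reached 1 CPM in 3 libraries, and *Kdm6bos*, which reached it in 0. The member closest to the minimum was *Kdm8*, which reached 1 CPM in 5 libraries, at 1.26 ± 1.34 CPM against 1.66 ± 1.07 CPM (*Bbs8*+/+ against *Bbs8*-/-, mean ± SD, n = 4).

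All animals were C57/Bl6 mice aged 29 days that had received no treatment, and their sex was not determined. The *Bbs8*-/- mice lack *Bbs8* (*Ttc8*), a subunit of the BBSome, which sorts cargo into cilia. The deletion was present in every cell, so photoreceptors, whose outer segments are modified cilia that the RPE renews by phagocytosis, lacked the gene as well, and loss in the RPE and loss in the retina cannot be told apart. The labels describe the samples as isolated RPE cells, and the study's methods also describe RNA from eyecups after removal of cornea, lens, retina and optic nerve.

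Histone tails carry methyl and acetyl groups on lysines, which are placed by methyltransferases and acetyltransferases and removed by demethylases and deacetylases. Trimethylation of H3K4 marks active promoters and monomethylation of H3K4 marks enhancers, methylation of H3K27 by Polycomb repressive complex 2 (PRC2) and of H3K9 by the SUV39 and EHMT enzymes accompanies silent chromatin, H3K36 methylation follows elongating RNA polymerase, and acetylation accompanies open chromatin. In the eye these enzymes are known for their part in the choice between RPE and neural retina during development and for setting the compact chromatin of rod nuclei, and inhibitors of deacetylases have long been tested against retinal degeneration. Several members carry the family name for their sequence and act elsewhere: SETD3 methylates actin, KMT2E has no known methyltransferase activity, SIRT2 deacetylates mainly cytoplasmic proteins such as tubulin, and SIRT3, SIRT4 and SIRT5 are mitochondrial. The libraries measured RNA, not the proteins or the marks.

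Each library held 2389835 to 3093428 counts on genes, and the lowest level taken as detected, 3 counts, equals 0.970 to 1.26 CPM and reflects counting error alone. *Ttc8* was at 35.5, 53.0, 58.9 and 43.1 CPM in the *Bbs8*+/+ libraries and 6.16, 1.79, 5.60 and 5.24 CPM in the *Bbs8*-/- libraries (log2 fold change -3.34, SE 0.294, adjusted p = 2.47e-11, edgeR's quasi-likelihood test), and the genotypes did not overlap. The libraries of the genotypes differed in markers of other cells. The summed level of 21 photoreceptor genes was 66334 to 69897 CPM in *Bbs8*+/+ and 28018 to 28899 CPM in *Bbs8*-/- libraries (15 fell and 4 rose), that of 19 lens genes 3516 to 3706 CPM in *Bbs8*+/+ and 481 to 526 CPM in *Bbs8*-/- libraries (18 of 18 tested fell), that of 8 erythrocyte genes 5164 to 5721 CPM in *Bbs8*+/+ and 1987 to 2222 CPM in *Bbs8*-/- libraries (5 of 7 tested fell), that of 10 glial genes 3127 to 3253 CPM in *Bbs8*+/+ and 4255 to 4457 CPM in *Bbs8*-/- libraries (4 rose), and that of 8 surface epithelium genes 44.6 to 64.0 CPM in *Bbs8*+/+ and 115 to 149 CPM in *Bbs8*-/- libraries (4 of 6 tested rose), with *Krt12* of that list at 0 in all 8 libraries. The glial list includes *Rlbp1* (1780 to 1925 CPM in *Bbs8*+/+ and 1847 to 1972 CPM in *Bbs8*-/-), which is also 1 of the RPE markers, so its sum is not of glia alone. The 16 RPE markers summed to 41699 to 42812 CPM in *Bbs8*+/+ and 49988 to 53939.7 CPM in *Bbs8*-/- libraries (4 rose and 5 fell). Without *Ttr*, chosen after its values were seen, the other 15 summed to 21250.1 to 21711 CPM in *Bbs8*+/+ and 20043 to 20718 CPM in *Bbs8*-/- libraries, so the higher sum rested on *Ttr*, and *Best1*, one of them, was at 0 to 2.00 CPM. Every library held transcripts of both *Xist* (41.3 to 71.1 CPM in *Bbs8*+/+ and 199.6 to 212 CPM in *Bbs8*-/-) and 4 Y-linked genes, so each held RNA of both sexes. *Xist* was higher in *Bbs8*-/- libraries without overlap, whereas none of the 4 Y-linked genes passed the test. Of these, *Eif2s3y* was lower in *Bbs8*-/- libraries without overlap (10.2 to 14.3 CPM in *Bbs8*+/+ and 4.11 to 9.20 CPM in *Bbs8*-/-). *Ddx3y*, the highest of the Y-linked genes, overlapped (73.6 to 108 CPM in *Bbs8*+/+ and 66.7 to 86.4 CPM in *Bbs8*-/-), as did *Uty* and *Kdm5d*. The share of reads on no gene was 17.0% to 18.4% in *Bbs8*+/+ and 19.8% to 20.6% in *Bbs8*-/- libraries. The part of cell composition, of sex and of this share in the results was not tested, and in bulk RNA fewer cells of a type cannot be told apart from less RNA per cell. The study counts each animal as a biological replicate, but these libraries may be pools, and p-values measure only the spread between them.

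Of the 67 enzyme genes, 12 (17.9%) differed between the genotypes at an adjusted p under 0.05, 2 higher and 10 lower in *Bbs8*-/- RPE (edgeR's quasi-likelihood test, two-sided, p-values adjusted over all 12889 genes). Among all genes tested 12.3% differed, 5.46% higher (704 genes) and 6.80% lower (877 genes). Scaled by library size alone these were 1005 higher and 657 lower, and 2 enzyme genes were higher and 6 lower. All 7 writers that differed were lower: *Kmt2c*, *Kmt2d*, *Kmt2e*, *Setd1b*, *Ezh2*, *Suz12* and *Kmt5c*. Of the 5 erasers that differed, *Kdm5b*, *Hdac9* and *Sirt2* were lower and *Hdac7* and *Hdac3* were higher. The median log2 fold change was -0.15 over all members, -0.17 over writers and -0.14 over erasers, against 0.022 over all genes tested. The fold change was below 0 for 39 of 67 members (58.2%), against 48.2% of all genes. The 2 genotypes did not overlap for 11 members (16.4%, against 16.0% of all genes), 9 of them with *Bbs8*-/- below (8.62% of all genes) and 2 with it above (7.42%). At an unadjusted p under 0.05, 20 members were lower and 4 higher, against 12.1% and 11.3% of all genes.

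**Figure D1:**
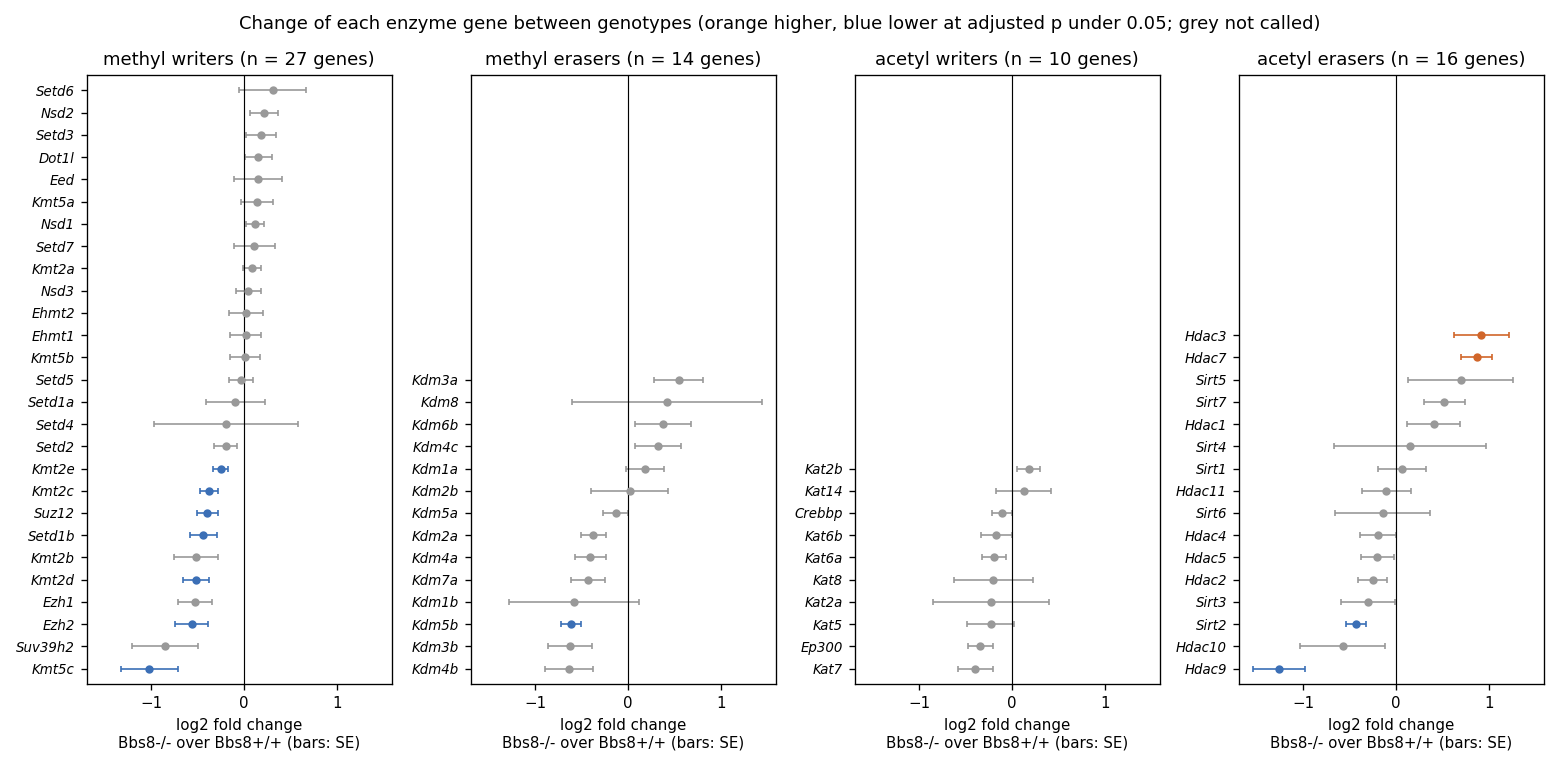
Log2 fold change of each of the 67 enzyme genes (*Bbs8*-/- over *Bbs8*+/+, bars: standard error, n = 4 libraries per genotype), in 4 panels for 27 methyl writers, 14 methyl erasers, 10 acetyl writers and 16 acetyl erasers. Blue points (10 genes) were lower and orange points (2 genes, *Hdac3* and *Hdac7*) higher at an adjusted p under 0.05, and no acetyl writer was coloured.

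The members were expressed above the typical gene, with a median of 41.5 CPM against 18.9 CPM over all genes tested, and genes of higher level were called more often. In QuantSeq data 1 tag stands for 1 transcript end, so CPM needs no correction for length between genes. Other differences in how completely the reads of each gene are counted were not corrected. Among the 28 members with a mean of at least 50 CPM, 8 (28.6%) were called, 1 higher and 7 lower, against 29.7% of all genes at that level (10.9% higher and 18.8% lower). Among the 29 members at 10 to 50 CPM, 4 were called, 1 higher and 3 lower, against 9.28% of all genes (5.04% higher and 4.24% lower), and among the 10 members under 10 CPM 0 were called, against 2.85%. At an unadjusted p under 0.05, 0 of these 10 members passed, against 9.17% of all genes at that level. The share of members called at 50 CPM or more was thus close to that of other genes of their level. Of the 8 called there, 5 were writers, all lower, and 3 were erasers.

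**Figure D2:**
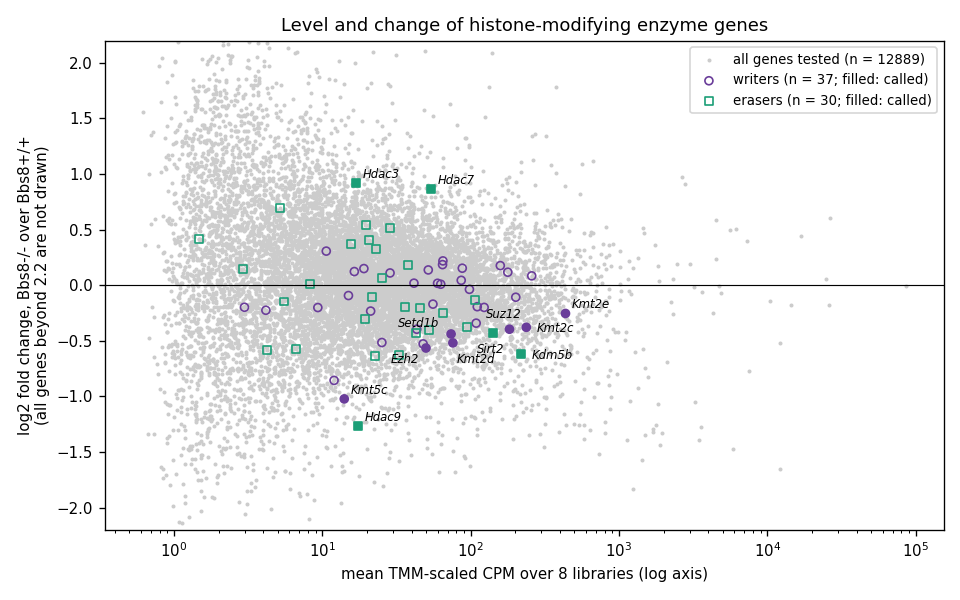
Mean level of each gene over the 8 libraries (CPM, log axis) against its log2 fold change between *Bbs8*-/- and *Bbs8*+/+ RPE. Grey points are the 12889 genes tested, circles are 37 writers and squares 30 erasers, filled where the adjusted p was under 0.05, and the named genes are the 12 called, of which *Hdac3* and *Hdac7* lie above 0.

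Among the 7 members that methylate H3K4, 3 fell (*Kmt2c*, *Kmt2d* and *Setd1b*), 0 rose and 4 did not pass the test, with a median log2 fold change of -0.38. Among all genes tested 6.80% fell and 5.46% rose. At 50 CPM or more, the level of these 3, 18.8% of all genes fell. KMT2C and KMT2D place H3K4 monomethylation at enhancers. *Kmt2c* (ENSMUSG00000038056, chromosome 5, 25271798 to 25498783, reverse strand of GRCm38) was at 239, 298, 277 and 259 CPM in the *Bbs8*+/+ libraries and 205, 208, 193 and 218 CPM in the *Bbs8*-/- libraries. *Kmt2d* (ENSMUSG00000048154, chromosome 15, 98831669 to 98871204, reverse strand) was at 88.7, 92.5, 81.8 and 94.4 CPM in the *Bbs8*+/+ libraries and 65.7, 61.3, 57.2 and 65.3 CPM in the *Bbs8*-/- libraries. In both genes the *Bbs8*-/- values were all lower than the lowest *Bbs8*+/+ value. *Kmt2c* fell from 268 ± 25.2 CPM to 206 ± 10.5 CPM (SD, n = 4; log2 fold change -0.38, SE 0.0967, adjusted p = 0.00587) and *Kmt2d* from 89.3 ± 5.58 CPM to 62.4 ± 3.99 CPM (log2 fold change -0.52, SE 0.138, adjusted p = 0.00846). Both calls held with each library left out in turn, with log2 fold changes between -0.43 and -0.33 and between -0.56 and -0.48.

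*Setd1b* (ENSMUSG00000038384, chromosome 5, 123142193 to 123168629, forward strand), the catalytic subunit of a complex that trimethylates H3K4 at promoters, was at 99.9, 74.6, 79.7 and 85.1 CPM in the *Bbs8*+/+ libraries and 71.0, 58.8, 59.2 and 61.8 CPM in the *Bbs8*-/- libraries (log2 fold change -0.44, SE 0.145, adjusted p = 0.0399). The genotypes did not overlap, although the lowest *Bbs8*+/+ and the highest *Bbs8*-/- library were close. This call was lost without *Bbs8*+/+ replicate 1 or 4 or without *Bbs8*-/- replicate 2, 3 or 4 (adjusted p = 0.0827 to 0.148), with library size alone (adjusted p = 0.114) and with the replicate number as a block (adjusted p = 0.0531). Its paralog *Setd1a* stood at 15.5 ± 3.67 CPM against 14.5 ± 5.98 CPM with a log2 fold change of -0.092 (adjusted p = 0.909). *Kmt2b* stood at 29.6 ± 5.11 CPM against 20.8 ± 4.24 CPM (log2 fold change -0.51, SE 0.235, adjusted p = 0.169; unadjusted p = 0.0354) and did not pass. *Kmt2a*, which maintains H3K4 trimethylation at homeobox genes, had the highest mean of these H3K4 enzymes over the 8 libraries and stood at 250.3 ± 13.6 CPM against 265 ± 22.0 CPM (log2 fold change 0.085, SE 0.0939, adjusted p = 0.658). *Setd7*, which also methylates proteins other than histones, stood at 27.5 ± 5.41 CPM against 29.7 ± 3.69 CPM (adjusted p = 0.830). Thus the members of the KMT2 family lay on both sides of 0, and only *Kmt2c* and *Kmt2d* of *Kmt2a* to *Kmt2d* passed the test.

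The promoters of *Kmt2c* and *Kmt2d*, which both fell, are shown as RefSeq gives them, from 250 bases before to 50 after the transcript start (GRCm38.p6, 5′ to 3′ on the gene's strand). The window of *Kmt2c* (chr5:25498734-25499033, reverse strand) holds 56 CG dinucleotides and that of *Kmt2d* (chr15:98871156-98871455, reverse strand) 27, against a median of 7 over all 32851 windows. Capitals mark the letters ACGTG, the core of the hypoxia response element, on either strand, which neither window holds.
Kmt2c: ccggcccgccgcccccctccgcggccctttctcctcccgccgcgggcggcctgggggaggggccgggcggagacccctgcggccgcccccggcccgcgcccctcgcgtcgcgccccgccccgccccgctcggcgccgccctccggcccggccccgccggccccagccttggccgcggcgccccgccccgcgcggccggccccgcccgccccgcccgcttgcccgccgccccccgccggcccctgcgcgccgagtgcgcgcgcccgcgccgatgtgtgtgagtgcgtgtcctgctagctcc
Kmt2d: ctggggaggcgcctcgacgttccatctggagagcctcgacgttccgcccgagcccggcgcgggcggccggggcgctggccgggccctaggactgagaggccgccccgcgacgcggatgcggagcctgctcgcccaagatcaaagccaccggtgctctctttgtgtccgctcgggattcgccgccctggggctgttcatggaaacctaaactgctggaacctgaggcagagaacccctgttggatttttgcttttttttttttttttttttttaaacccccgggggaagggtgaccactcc

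*Kmt2e*, a SET domain protein of the same family without known methyltransferase activity, had the highest level of all 67 members, at a mean of 436 CPM over the 8 libraries. *Kmt2e* (ENSMUSG00000029004, chromosome 5, 23434441 to 23504235, forward strand) was at 465, 463, 492 and 475 CPM in the *Bbs8*+/+ libraries and 412, 382, 383 and 413 CPM in the *Bbs8*-/- libraries. The genotypes did not overlap, and the difference was small, a fall to 0.839 of the *Bbs8*+/+ level (log2 fold change -0.25, SE 0.0800, adjusted p = 0.0301). The call was lost without *Bbs8*+/+ replicate 2, 3 or 4 or *Bbs8*-/- replicate 2 or 3 (adjusted p = 0.0532 to 0.0929), with edgeR's likelihood ratio test (adjusted p = 0.0688) and with library size alone (log2 fold change -0.16, adjusted p = 0.194). At its 3′ end *Kmt2e* overlaps *Srpk2*, a gene on the opposite strand, by 972 bases, and *Srpk2* was at 152 CPM (log2 fold change -0.13, adjusted p = 0.518). Whether the counting used strand is not given in the sources used here, so reads of the 2 genes may not be separable.

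Of the 4 core genes of PRC2, which methylates H3K27, *Ezh2* and *Suz12* fell (50%, against 6.80% of all genes), and *Ezh1* and *Eed* did not pass the test. At 50 CPM or more, the level of *Suz12*, 18.8% of all genes fell. At 10 to 50 CPM, where *Ezh2* lay at the upper edge with a mean of 49.9 CPM, 4.24% fell. *Ezh2* (ENSMUSG00000029687, chromosome 6, 47530139 to 47595341, reverse strand), the main catalytic subunit in dividing cells, was at 62.3, 64.2, 45.8 and 65.8 CPM in the *Bbs8*+/+ libraries and 50.9, 36.9, 38.0 and 35.6 CPM in the *Bbs8*-/- libraries. *Suz12* (ENSMUSG00000017548, chromosome 11, 79993106 to 80034123, forward strand), the scaffold subunit, was at 237, 216, 190.5 and 186 CPM in the *Bbs8*+/+ libraries and 144, 178, 176 and 133 CPM in the *Bbs8*-/- libraries. *Bbs8*-/- replicate 1 stood above the other 3 *Bbs8*-/- libraries for *Ezh2* and overlapped the *Bbs8*+/+ libraries, whereas *Suz12* did not overlap. *Ezh2* fell from 59.5 ± 9.26 CPM to 40.4 ± 7.10 CPM (log2 fold change -0.56, SE 0.177, adjusted p = 0.0289) and *Suz12* from 207 ± 23.6 CPM to 158 ± 22.6 CPM (log2 fold change -0.40, SE 0.112, adjusted p = 0.0137). *Ezh1*, the catalytic subunit known from non-dividing cells, was at 44.0, 69.0, 53.5 and 59.1 CPM in the *Bbs8*+/+ libraries and 39.0, 37.3, 47.6 and 32.8 CPM in the *Bbs8*-/- libraries. The *Ezh1* value lay just over the threshold (log2 fold change -0.53, SE 0.181, adjusted p = 0.0503), with *Bbs8*-/- replicate 3 inside the *Bbs8*+/+ range. *Eed*, which binds trimethylated H3K27, stood at 18.1 ± 3.26 CPM against 20.0 ± 0.971 CPM (log2 fold change 0.15, SE 0.258, adjusted p = 0.800).

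The calls of this complex depended on settings. *Ezh2* lost its call without *Bbs8*+/+ replicate 2 or 4 or without *Bbs8*-/- replicate 2, 3 or 4 (adjusted p = 0.0710 to 0.101), and *Suz12* without *Bbs8*-/- replicate 1 or 4 (adjusted p = 0.0530 to 0.0858). With libraries scaled by library size alone neither passed (adjusted p = 0.0724 and 0.0649), with log2 fold changes of -0.48 and -0.31. *Ezh1* passed without *Bbs8*+/+ replicate 1 (adjusted p = 0.0146) or *Bbs8*-/- replicate 3 (adjusted p = 0.0312), and just passed with DESeq2, edgeR's likelihood ratio test, no filter, a 5 CPM minimum and TMM factors without marker genes of other tissues (adjusted p = 0.0413 to 0.0492). With any 1 of the other 6 libraries left out it did not pass, with an adjusted p of up to 0.214. DESeq2 thus called 3 of the 4 genes. In *Bbs8*+/+ RPE the mean levels of *Ezh2* and *Ezh1*, 59.5 ± 9.26 and 56.4 ± 10.5 CPM, lay within the spread between libraries, and this was also so in *Bbs8*-/- RPE.

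The promoters of both PRC2 genes that fell are shown for the contrast in the letters searched for. The *Ezh2* window (chr6:47594981-47595280, reverse strand, 31 CG dinucleotides) holds ACGTG once, on the opposite strand, beginning 246 bases before the start. The *Suz12* window (chr11:79992856-79993155, forward strand, 41 CG dinucleotides) does not hold it. Windows come from RefSeq, GRCm38.p6, and capitals mark ACGTG on either strand.
Ezh2: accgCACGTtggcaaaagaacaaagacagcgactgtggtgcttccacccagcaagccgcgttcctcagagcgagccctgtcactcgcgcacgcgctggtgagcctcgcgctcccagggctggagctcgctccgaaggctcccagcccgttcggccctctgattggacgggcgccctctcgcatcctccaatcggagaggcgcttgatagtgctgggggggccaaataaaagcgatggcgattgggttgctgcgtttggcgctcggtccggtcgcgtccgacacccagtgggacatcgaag
Suz12: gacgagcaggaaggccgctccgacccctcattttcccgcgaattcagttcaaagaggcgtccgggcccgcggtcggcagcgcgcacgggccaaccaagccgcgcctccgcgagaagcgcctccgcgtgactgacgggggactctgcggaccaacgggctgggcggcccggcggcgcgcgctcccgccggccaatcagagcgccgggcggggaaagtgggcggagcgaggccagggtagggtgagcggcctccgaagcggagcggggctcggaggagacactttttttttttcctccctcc

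*Kmt5c*, which trimethylates H4K20 in heterochromatin, showed the largest fall among the writers called. *Kmt5c* (ENSMUSG00000059851, chromosome 7, 4740115 to 4747514, forward strand) was at 15.2, 20.1, 23.7 and 16.4 CPM in the *Bbs8*+/+ libraries and 9.03, 7.88, 9.20 and 10.8 CPM in the *Bbs8*-/- libraries. The genotypes did not overlap, and the level fell from 18.9 ± 3.86 CPM to 9.24 ± 1.21 CPM (log2 fold change -1.02, SE 0.307, adjusted p = 0.0216). The call was lost without *Bbs8*+/+ replicate 2 or 3 or *Bbs8*-/- replicate 2 (adjusted p = 0.0570 to 0.0957). Its paralog *Kmt5b*, which makes the same mark, stood at 62.6 ± 6.76 CPM against 63.0 ± 11.3 CPM (log2 fold change 0.0094, SE 0.158, adjusted p = 0.985), so of these paralogs only *Kmt5c* passed. *Kmt5a*, which monomethylates H4K20, stood at 49.3 ± 7.75 CPM against 54.2 ± 5.14 CPM (adjusted p = 0.699). *Dot1l*, which methylates H3K79, stood at 83.2 ± 14.8 CPM against 92.3 ± 15.7 CPM (adjusted p = 0.593).

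None of the 3 H3K9 methyltransferases and none of the 4 H3K36 methyltransferases among the members passed the test with edgeR, and DESeq2 called 0 of either. The unadjusted p was under 0.05 for 1 and 0 of them, against 23.4% of all genes. *Suv39h2*, which trimethylates H3K9 in pericentric heterochromatin, was at 11.5, 21.6, 11.0 and 17.8 CPM in the *Bbs8*+/+ libraries and 4.52, 10.0, 6.80 and 12.6 CPM in the *Bbs8*-/- libraries (log2 fold change -0.86, SE 0.356, adjusted p = 0.123; unadjusted p = 0.0215), and the genotypes overlapped. *Ehmt1* and *Ehmt2*, the paired enzymes of H3K9 dimethylation, had log2 fold changes of 0.018 (SE 0.168) and 0.019 (SE 0.182). *Nsd1*, which dimethylates H3K36, was the most abundant of these 4 H3K36 members at 171 ± 14.4 CPM against 185 ± 4.87 CPM (adjusted p = 0.549). *Setd2*, which trimethylates H3K36, stood at 132 ± 20.9 CPM against 115 ± 9.87 CPM (adjusted p = 0.361). The log2 fold changes of the 4 ran from -0.20 to 0.22, and those of *Setd3*, *Setd4*, *Setd5* and *Setd6*, none of which passed, from -0.20 to 0.31. *Setd4* was among the lowest members, at 3.21 ± 1.49 CPM against 2.76 ± 2.53 CPM.

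**Figure D3:**
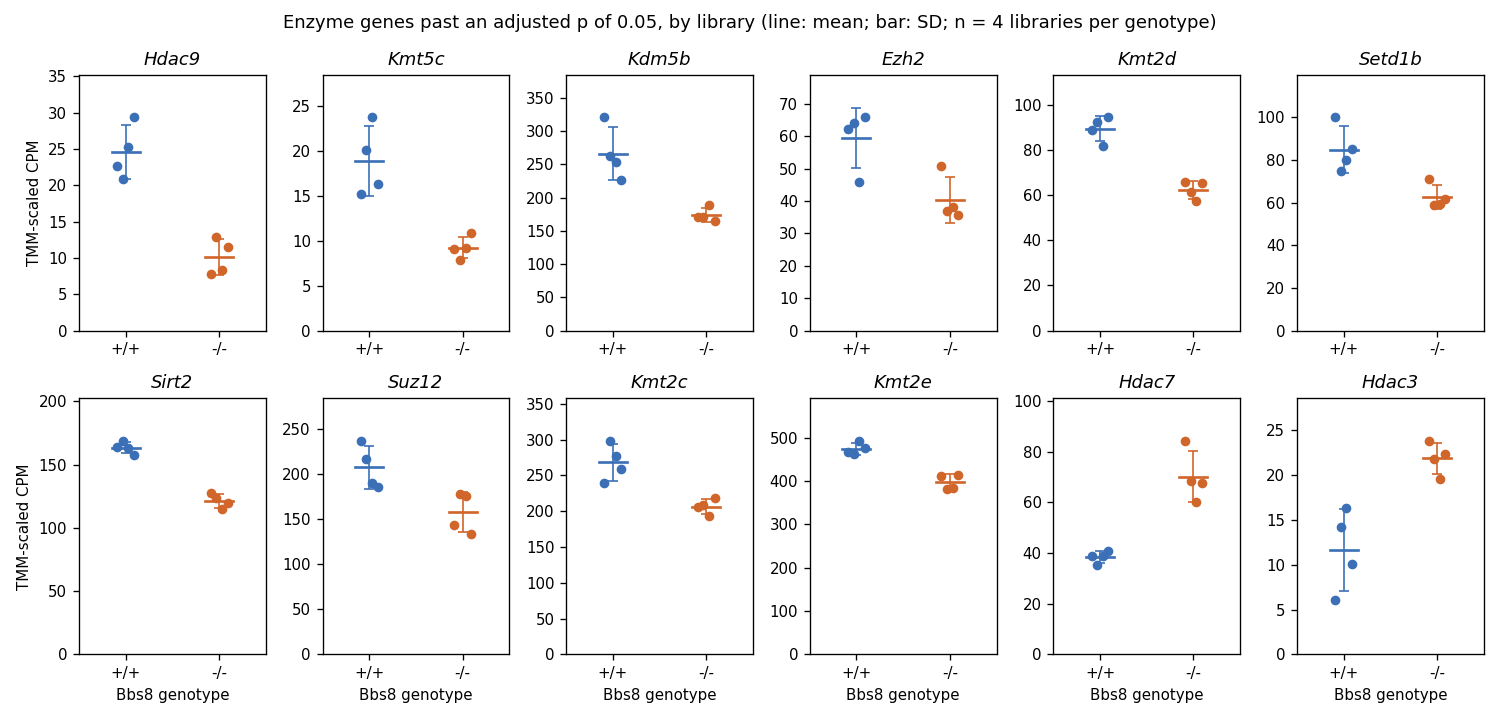
Level (TMM-scaled CPM) of the 12 enzyme genes past an adjusted p of 0.05, by genotype, with 1 point per library, a line at the mean and a bar for the SD (n = 4 libraries per genotype). Of the 12, only *Ezh2* has a *Bbs8*-/- library inside the *Bbs8*+/+ range.

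None of the 10 acetyl writers passed the test with edgeR. An unadjusted p under 0.05 was found for 2, both with lower values in *Bbs8*-/- RPE, against 12.1% of all genes lower at that p. DESeq2 called 8 writers, none of them an acetyl writer. *Ep300*, a transcriptional coactivator that acetylates H3K27 at enhancers, was at 151, 103, 124 and 109 CPM in the *Bbs8*+/+ libraries and 80.5, 93.2, 112 and 98.9 CPM in the *Bbs8*-/- libraries (log2 fold change -0.34, SE 0.134, adjusted p = 0.0987; unadjusted p = 0.0157). Its paralog *Crebbp* was the most abundant of the 10 acetyl writers, at 209 ± 31.4 CPM against 194 ± 14.9 CPM (log2 fold change -0.11, SE 0.107, adjusted p = 0.612). *Kat7* (HBO1), which acetylates H3 and H4, was at 45.0, 59.7, 40.9 and 51.3 CPM in the *Bbs8*+/+ libraries and 27.5, 36.9, 42.8 and 42.3 CPM in the *Bbs8*-/- libraries (log2 fold change -0.40, SE 0.189, adjusted p = 0.195; unadjusted p = 0.0435). In each of these 3 genes the genotypes overlapped.

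*Kat2b* (PCAF), an H3K9 acetyltransferase, stood at 149 ± 26.4 CPM against 168 ± 25.3 CPM (log2 fold change 0.18, SE 0.123, adjusted p = 0.426), and *Kat6a* (MOZ) at 118 ± 13.8 CPM against 103 ± 13.1 CPM (adjusted p = 0.393). *Kat2a* (GCN5), the paralog of *Kat2b*, was low, at 4.51 ± 2.71 CPM against 3.81 ± 1.71 CPM, so that counted *Kat2b* tags outnumbered *Kat2a* tags in every library. The 5 MYST family genes all had log2 fold changes below 0, from -0.40 to -0.17, and none passed the test, although that of *Kat8* turned above 0 without *Bbs8*+/+ replicate 1 or *Bbs8*-/- replicate 2. *Kat14*, a subunit of the ATAC complex, stood at 15.7 ± 4.29 CPM against 17.1 ± 5.56 CPM (adjusted p = 0.862).

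Of the 14 methyl erasers, 1 fell (7.14%, against 6.80% of all genes), 0 rose (against 5.46%) and 13 did not pass the test. *Kdm5b*, which removes methyl groups from trimethylated H3K4, was the most abundant of these 14 and had the smallest adjusted p of all 67 members. *Kdm5b* (ENSMUSG00000042207, chromosome 1, 134560171 to 134635285, forward strand) was at 321, 263, 254 and 227 CPM in the *Bbs8*+/+ libraries and 171, 171, 189.6 and 164 CPM in the *Bbs8*-/- libraries. The lowest *Bbs8*+/+ library lay well above the highest *Bbs8*-/- library. The level fell from 266 ± 39.5 CPM to 174 ± 10.9 CPM (SD, n = 4), to 0.653 of the *Bbs8*+/+ level (log2 fold change -0.61, SE 0.105, adjusted p = 3.49e-05). On omission of single libraries the log2 fold change lay between -0.69 and -0.51 and the adjusted p was at most 0.000594. Its paralog *Kdm5a* stood at 112 ± 16.4 CPM against 102 ± 18.0 CPM (log2 fold change -0.14, SE 0.135, adjusted p = 0.613). *Kdm1a* (LSD1), the flavin-dependent H3K4 demethylase, stood at 35.4 ± 3.07 CPM against 40.3 ± 10.2 CPM (adjusted p = 0.661), and the low *Kdm1b* at 5.05 ± 4.61 CPM against 3.37 ± 2.27 CPM. Thus *Kdm5b* alone of the 4 H3K4 demethylases among the members passed.

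The *Kdm5b* promoter is shown because this gene carried the clearest difference. The RefSeq window (chr1:134559928-134560227, forward strand, GRCm38.p6, 17 CG dinucleotides) holds ACGTG once, in capitals, beginning 229 bases before the start.
Kdm5b: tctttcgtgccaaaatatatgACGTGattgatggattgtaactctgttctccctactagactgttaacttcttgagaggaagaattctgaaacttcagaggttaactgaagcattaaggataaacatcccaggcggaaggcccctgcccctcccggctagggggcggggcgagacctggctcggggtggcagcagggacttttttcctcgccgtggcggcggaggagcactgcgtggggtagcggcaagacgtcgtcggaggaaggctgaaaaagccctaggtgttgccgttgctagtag

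The letters searched for were common in promoters in general. Of the 67 members 52 had a window, 73 windows in all. ACGTG on either strand stood in 23.3% of the members' windows and 19.6% of all windows, and in 2 of the 13 windows of the called members, those of *Ezh2* and *Kdm5b*. The E-box CACGTG, which contains ACGTG, stood in 8.22% of the members' and 7.15% of all windows, the cyclic AMP response element TGACGTCA in 1.37% and 1.79%, and the AP-1 site TGACTCA in 8.22% and 5.20%. TAATCC, the core of sites for OTX and CRX proteins, stood in 6.85% and 7.06%. Among called members TGACTCA stood in 1 of the windows of *Hdac7* and TAATCC in 1 of those of *Hdac9*. The members' windows held a median of 26.0 CG dinucleotides against 7.0 over all windows. A match is a run of letters and was not tested as a binding site, and no window was used for *Hdac3*, *Kmt2e* and *Setd1b*.

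The 7 members that demethylate H3K36 and H3K9 gave 0 calls with edgeR and 0 with DESeq2. At an unadjusted p under 0.05, 1 was higher and 4 were lower, against 11.3% and 12.1% of all genes. *Kdm2a*, which demethylates H3K36 and binds unmethylated CpG islands, was the most abundant of them, at 106 ± 20.3 CPM against 82.1 ± 5.09 CPM (log2 fold change -0.37, SE 0.138, adjusted p = 0.0728), and passed without *Bbs8*+/+ replicate 3 (adjusted p = 0.0197). *Kdm3a* and *Kdm3b*, paralogs that demethylate H3K9, lay on opposite sides of 0. *Kdm3a* was at 12.9, 20.5, 16.8 and 13.8 CPM in the *Bbs8*+/+ libraries and 17.7, 24.7, 27.6 and 23.1 CPM in the *Bbs8*-/- libraries (log2 fold change 0.54, SE 0.263, adjusted p = 0.202). *Kdm3b* was at 17.2, 38.0, 32.0 and 16.4 CPM in the *Bbs8*-/- libraries, 40.0 ± 4.12 CPM against 25.9 ± 10.8 CPM by mean (log2 fold change -0.63, SE 0.233, adjusted p = 0.0759). The genotypes overlapped in both, and in *Kdm3b* the *Bbs8*-/- libraries fell into a lower and a higher pair. The difference between the paralogs was not tested. *Kdm3b* passed without *Bbs8*-/- replicate 2 (adjusted p = 0.0165), with the replicate number as a block (0.0473) and with no filter on low counts (0.0445).

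*Kdm4a* and *Kdm4b*, which demethylate H3K9 and H3K36, had log2 fold changes of -0.40 (adjusted p = 0.119) and -0.64 (adjusted p = 0.107). *Kdm4a* was at 59.2, 48.9, 64.6 and 67.6 CPM in the *Bbs8*+/+ libraries and 52.1, 42.6, 42.8 and 44.0 CPM in the *Bbs8*-/- libraries, with *Bbs8*-/- replicate 1 above the other *Bbs8*-/- libraries. *Kdm4c*, of the same family, stood at 20.3 ± 3.71 CPM against 25.4 ± 5.85 CPM (log2 fold change 0.32, adjusted p = 0.483). *Kdm7a*, which acts on H3K9 and H3K27, was at 51.5, 54.5, 44.6 and 46.5 CPM in the *Bbs8*+/+ libraries and 33.7, 46.6, 34.4 and 31.1 CPM in the *Bbs8*-/- libraries (log2 fold change -0.43, SE 0.184, adjusted p = 0.133), and the genotypes overlapped. *Kdm6b*, an H3K27 demethylase that opposes PRC2, stood at 13.6 ± 3.25 CPM against 17.8 ± 5.59 CPM (log2 fold change 0.38, SE 0.302, adjusted p = 0.510).

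The 16 acetyl erasers gave 2 rises (against 5.46% of all genes) and 2 falls (against 6.80%), and 12 did not pass the test. No other role had calls in both directions, but this rests on 4 genes. The call of 1 of them, *Hdac3*, was lost when some single libraries were left out. Among the class IIa deacetylases, which have weak catalytic activity of their own and act with corepressors and MEF2 factors, *Hdac7* rose and *Hdac9* fell. *Hdac7* (ENSMUSG00000022475, chromosome 15, 97792664 to 97844502, reverse strand) was at 38.9, 35.1, 38.8 and 40.9 CPM in the *Bbs8*+/+ libraries and 84.2, 68.4, 60.0 and 67.8 CPM in the *Bbs8*-/- libraries. *Hdac9* (ENSMUSG00000004698, chromosome 12, 34047580 to 34917095, reverse strand) was at 22.7, 20.9, 25.3 and 29.4 CPM in the *Bbs8*+/+ libraries and 7.80, 12.9, 8.40 and 11.5 CPM in the *Bbs8*-/- libraries. Neither gene had a library of one genotype inside the range of the other. *Hdac7* rose from 38.4 ± 2.43 CPM to 70.1 ± 10.1 CPM, 1.82-fold (log2 fold change 0.87, SE 0.165, adjusted p = 0.000194), and *Hdac9* fell from 24.6 ± 3.68 CPM to 10.2 ± 2.45 CPM, to 0.417 of the *Bbs8*+/+ level (log2 fold change -1.26, SE 0.282, adjusted p = 0.00148). Both calls held with each library left out, with log2 fold changes between 0.77 and 0.93 for *Hdac7* and between -1.40 and -1.16 for *Hdac9*, and under library size scaling, DESeq2 and the other settings tried.

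The other class IIa genes did not pass. *Hdac4* was at 45.7, 36.6, 37.6 and 33.1 CPM in the *Bbs8*+/+ libraries and 36.1, 27.9, 32.4 and 37.4 CPM in the *Bbs8*-/- libraries (log2 fold change -0.19, SE 0.197, adjusted p = 0.620). *Hdac5* was at 46.4, 51.5, 47.4 and 50.2 CPM in the *Bbs8*+/+ libraries and 46.8, 41.9, 49.6 and 32.1 CPM in the *Bbs8*-/- libraries (log2 fold change -0.20, SE 0.178, adjusted p = 0.562). The genotypes overlapped in both. In *Bbs8*+/+ RPE *Hdac5* was the highest of the 4, *Hdac7* and *Hdac4* did not differ beyond their spread, and *Hdac9* was the lowest. In *Bbs8*-/- RPE *Hdac7* stood above *Hdac5*, *Hdac5* reached into the range of *Hdac4* only in replicate 4 (32.1 CPM), and *Hdac9* was again lowest. At its 3′ end *Hdac7* overlaps *Slc48a1* on the opposite strand by 29 bases, an abundant gene at 637 CPM whose own log2 fold change was -0.18 (adjusted p = 0.186). Whether reads of *Slc48a1* entered the counts of *Hdac7* was not tested.

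**Figure D4:**
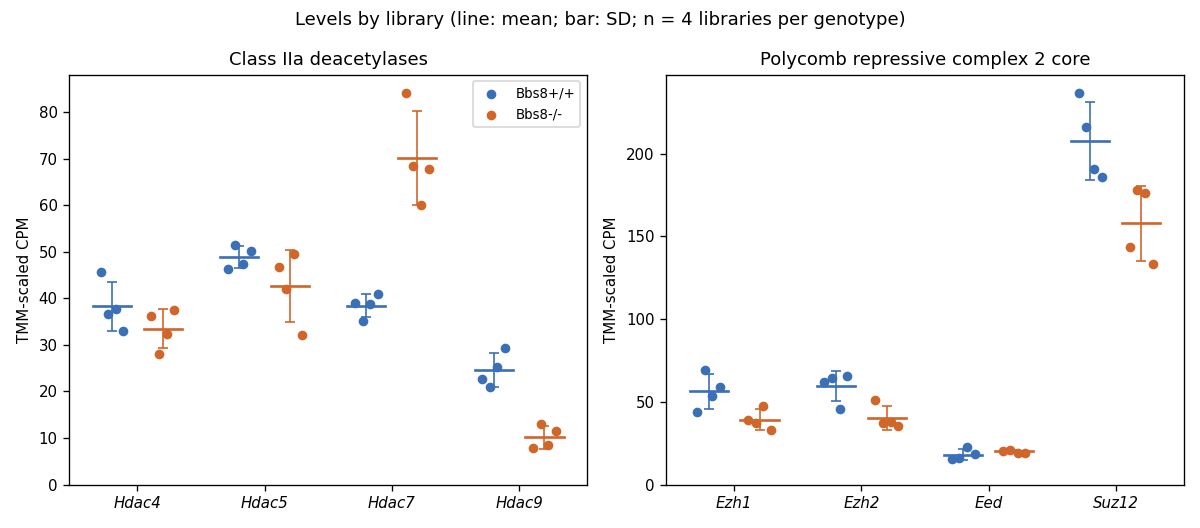
Level (TMM-scaled CPM) in each library of the 4 class IIa deacetylase genes (left) and the 4 PRC2 core genes (right), by genotype, with lines at the means and bars for the SD (n = 4 libraries per genotype). *Hdac7* rises from a mean of 38.4 to 70.1 CPM while *Hdac9* falls from 24.6 to 10.2 CPM, and *Suz12* lies above the other 3 PRC2 genes in every library.

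Of the class I deacetylases, the catalytic subunits of the large corepressor complexes, *Hdac3* rose and *Hdac1* and *Hdac2* did not pass the test. *Hdac3* (ENSMUSG00000024454, chromosome 18, 37935844 to 37955016, reverse strand), the deacetylase of the NCoR and SMRT complexes, was at 6.09, 14.2, 16.4 and 10.0 CPM in the *Bbs8*+/+ libraries and 23.8, 21.9, 19.6 and 22.4 CPM in the *Bbs8*-/- libraries. The *Bbs8*-/- libraries all lay above the *Bbs8*+/+ libraries, which spread widely. *Hdac3* rose from 11.7 ± 4.54 CPM to 21.9 ± 1.75 CPM (log2 fold change 0.92, SE 0.298, adjusted p = 0.0360). The call was lost without *Bbs8*+/+ replicate 1 or 4 or without *Bbs8*-/- replicate 1, 2 or 4 (adjusted p = 0.0661 to 0.137). *Hdac1* was at 13.5, 17.9, 13.9 and 26.0 CPM in the *Bbs8*+/+ libraries and 11.9, 33.7, 23.2 and 25.5 CPM in the *Bbs8*-/- libraries (log2 fold change 0.41, SE 0.286, adjusted p = 0.431), and *Hdac2* was the most abundant of the 3, at 70.5 ± 8.21 CPM against 59.0 ± 8.60 CPM (log2 fold change -0.25, SE 0.155, adjusted p = 0.348). Both overlapped between genotypes.

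Of the 7 sirtuins, the NAD-dependent deacylases, 1 fell (14.3%, against 6.80% of all genes), 0 rose (against 5.46%) and 6 did not pass. *Sirt2* (ENSMUSG00000015149, chromosome 7, 28766735 to 28788661, forward strand) was the most abundant of the 16 acetyl erasers, at 164, 169, 163 and 158 CPM in the *Bbs8*+/+ libraries and 128, 123, 115 and 119.5 CPM in the *Bbs8*-/- libraries. The libraries of each genotype lay close together and the genotypes did not overlap. *Sirt2* fell from 163 ± 4.35 CPM to 121 ± 5.48 CPM (log2 fold change -0.43, SE 0.108, adjusted p = 0.00488), and with each library left out the log2 fold change lay between -0.45 and -0.40 with an adjusted p of at most 0.0208. *Sirt7*, a nucleolar enzyme that deacetylates H3K18, was at 22.7, 20.5, 20.0 and 30.5 CPM in the *Bbs8*+/+ libraries and 32.4, 28.7, 38.0 and 35.3 CPM in the *Bbs8*-/- libraries (log2 fold change 0.52, SE 0.221, adjusted p = 0.135; unadjusted p = 0.0248). The genotypes overlapped through 1 *Bbs8*+/+ library and *Sirt7* did not pass.

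*Sirt1*, the nuclear sirtuin that also deacetylates p53, stood at 24.9 ± 4.79 CPM against 25.9 ± 10.3 CPM (log2 fold change 0.063, SE 0.258, adjusted p = 0.927), and *Sirt6*, which deacetylates H3K9 and H3K56, at 5.75 ± 2.59 CPM against 5.22 ± 1.69 CPM (log2 fold change -0.15, SE 0.514, adjusted p = 0.912). The standard errors of both exceeded their differences, so no direction can be read. *Sirt4*, with *Kdm8* and *Setd4* the lowest members by mean level, stood at 2.77 ± 1.88 CPM against 3.06 ± 1.66 CPM, close to the floor. *Hdac10* and *Hdac11* did not pass either (adjusted p = 0.503 and 0.865).

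The summed level of each role described how much transcript the roles contributed, with no test, because the members with differences enter the sums. The 27 methyl writers summed to 2532, 2616, 2491 and 2482 CPM in the *Bbs8*+/+ libraries and 2268, 2305, 2292 and 2269 CPM in the *Bbs8*-/- libraries. The 14 methyl erasers summed to 863, 789.9, 691 and 699.8 CPM in the *Bbs8*+/+ libraries and 603, 626, 605 and 581 CPM in the *Bbs8*-/- libraries. In both roles the *Bbs8*-/- sums were all lower than the lowest *Bbs8*+/+ sum. The mean sum was 9.75% lower in *Bbs8*-/- libraries for methyl writers and 20.7% lower for methyl erasers. Much of the eraser fall, from 761 to 604 CPM, was that of *Kdm5b* alone, from 266 to 174 CPM. The fall and the lack of overlap thus cannot be read as shared by the 14 methyl erasers, and *Kdm5b* also enters the ratios below. On this scale the sum over all 12889 genes tested was 5.99% lower, also without overlap. That sum is set almost wholly by the TMM factors, so its fall is not a result of its own. The median log2 fold change of all genes was 0.022. The 10 acetyl writers summed to 758 ± 36.5 CPM in *Bbs8*+/+ and 700.3 ± 41.0 CPM in *Bbs8*-/- libraries, and overlapped (7.65% lower). The 16 acetyl erasers summed to 526 ± 10.2 CPM in *Bbs8*+/+ and 500.2 ± 17.0 CPM in *Bbs8*-/- libraries and did not overlap, by a small margin. The fall in their mean (4.93%) was smaller than that of the sum over all genes, which follows the scaling. The ratio of methyl writers to methyl erasers was 3.35 ± 0.304 in *Bbs8*+/+ and 3.79 ± 0.0929 in *Bbs8*-/- libraries, that of acetyl writers to acetyl erasers 1.44 ± 0.0930 in *Bbs8*+/+ and 1.40 ± 0.0806 in *Bbs8*-/- libraries, and that of H3K4 writers to H3K4 erasers 1.85 ± 0.218 in *Bbs8*+/+ and 2.07 ± 0.0873 in *Bbs8*-/- libraries. The acetyl and H3K4 ratios overlapped between genotypes, and *Kdm5b* had the highest level of the H3K4 erasers.

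**Figure D5:**
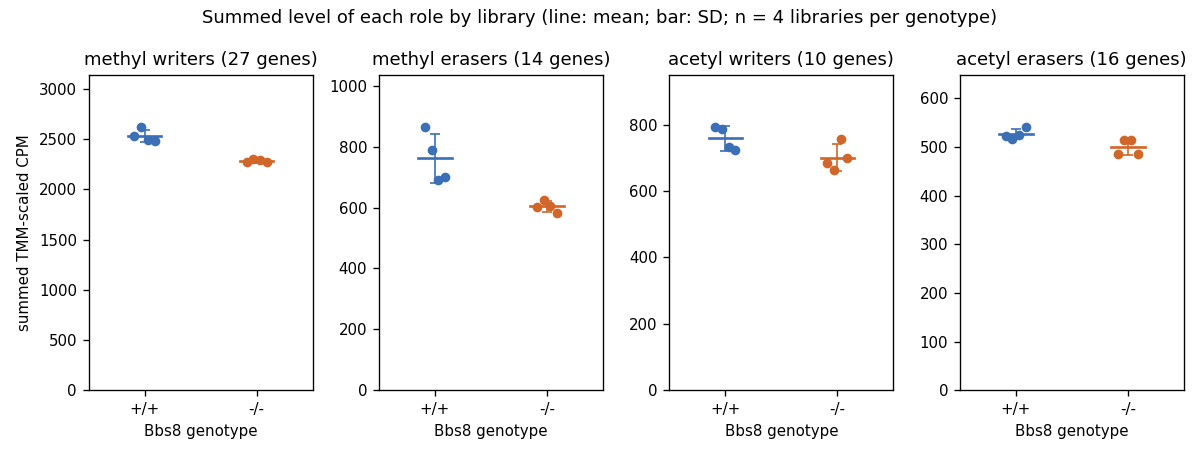
Summed level (TMM-scaled CPM, axes from 0) of the genes of each role in each library, by genotype, with lines at the means and bars for the SD (n = 4 libraries per genotype). The methyl writers go from 2530.2 to 2283 CPM and the methyl erasers from 761 to 604 CPM without overlap, while the acetyl writers overlap.

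The genes that work with these enzymes were taken from a list of 119 subunits, readers and related enzymes, of which 114 were tested. Of these, 2 rose (1.75%, against 5.46% of all genes) and 13 fell (11.4%, against 6.80%). In either direction 13.2% were called, against 12.3% of all genes, and the median log2 fold change was -0.052. Corepressor subunits gave 1 rise (5.26%) and 4 falls (21.1%) of 19. *Ncor1*, the scaffold that activates HDAC3, was at 628, 536, 513 and 574 CPM in the *Bbs8*+/+ libraries and 399, 367, 392 and 366 CPM in the *Bbs8*-/- libraries (log2 fold change -0.56, SE 0.0828, adjusted p = 2.67e-06). *Sin3a* and *Suds3*, of the SIN3 complex of HDAC1 and HDAC2, fell from 60.1 ± 6.34 CPM to 37.2 ± 6.10 CPM (log2 fold change -0.69, SE 0.175, adjusted p = 0.00526) and from 147 ± 7.59 CPM to 92.3 ± 8.50 CPM (log2 fold change -0.67, SE 0.118, adjusted p = 6.52e-05). None of these 3 overlapped between genotypes. *Mta2*, a subunit of the NuRD complex, fell (log2 fold change -0.62, adjusted p = 0.0103), while *Tbl1xr1*, which joins NCoR1 and HDAC3 in their complex, rose (log2 fold change 0.52, adjusted p = 0.0413) with overlapping libraries.

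Of 5 PRC2 accessory genes, *Jarid2*, which helps to recruit the complex, fell from 93.1 ± 11.9 CPM to 57.2 ± 8.33 CPM (log2 fold change -0.70, SE 0.148, adjusted p = 0.000748), and of 15 PRC1 genes *Bmi1* fell from 75.5 ± 2.69 CPM to 48.7 ± 3.86 CPM (log2 fold change -0.63, SE 0.150, adjusted p = 0.00273). None of the 9 COMPASS subunits that accompany the KMT2 and SETD1 enzymes passed the test with edgeR, with 1 at an unadjusted p under 0.05 and 0 called by DESeq2. Of 23 genes listed under acetyltransferase complexes 1 fell, *Ing1*, a reader of trimethylated H3K4 that belongs to the SIN3 deacetylase complex (log2 fold change -0.45, adjusted p = 0.00706). Of 9 readers, *Brd3*, which binds acetylated histones, fell from 266 ± 14.1 CPM to 163 ± 22.7 CPM (log2 fold change -0.71, SE 0.104, adjusted p = 2.57e-06), *Cbx3* (HP1 gamma) fell (log2 fold change -0.45, adjusted p = 0.0101) and *Cbx5* (HP1 alpha) rose from 196 ± 22.1 CPM to 246 ± 24.1 CPM (log2 fold change 0.33, SE 0.103, adjusted p = 0.0277). These HP1 paralogs thus passed the test in opposite directions, and the third, *Cbx1*, did not pass (log2 fold change -0.14, adjusted p = 0.389). *Ash1l*, an H3K36 dimethyltransferase outside the symbols used here, fell (log2 fold change -0.32, adjusted p = 0.0108), as did *Prmt5*, an arginine methyltransferase (log2 fold change -0.51, adjusted p = 0.0375). Of 9 genes of DNA methylation, the methyltransferase *Dnmt3a* and the dioxygenase *Tet3* fell (log2 fold changes -0.33 and -0.61, adjusted p = 0.0113 and 0.000722). With single libraries left out, 11 of the 15 calls held in all 8 fits. *Cbx5* lost its call without *Bbs8*+/+ replicate 2, 3 or 4 or *Bbs8*-/- replicate 2 or 3 (adjusted p = 0.0579 to 0.166), *Tbl1xr1* without *Bbs8*+/+ replicate 2 or 3 or *Bbs8*-/- replicate 1, 2 or 4 (adjusted p = 0.0627 to 0.169), *Prmt5* without *Bbs8*+/+ replicate 1 or 2 or *Bbs8*-/- replicate 1, 3 or 4 (adjusted p = 0.0741 to 0.132) and *Dnmt3a* without *Bbs8*+/+ replicate 2 (adjusted p = 0.0562).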

How the data were processed

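RPE RNA in 4 *Bbs8*+/+ and 4 *Bbs8*-/- libraries (30 ng per QuantSeq 3′ library, single-end reads of 100 bp) was analysed. After trimming, the authors mapped the reads to mm10 with STAR (Ensembl release 93 gene models) and counted uniquely mapped reads with htseq-count, and the deposited values are these raw counts per gene. Summary entries that name no gene, 51.0% to 52.4% of reads in *Bbs8*+/+ and 53.6% to 54.2% in *Bbs8*-/- libraries, were left out. Names and coordinates came from GENCODE M21 (Ensembl release 96, GRCm38), which names 31011 of 31053 identifiers. Genes that reached 1 CPM in 4 or more libraries were tested with edgeR 4.0.16 (R 4.3.3): TMM scaling, quasi-likelihood F test, two-sided, Benjamini-Hochberg adjustment over 12889 genes, threshold 0.05. CPM values are scaled by TMM factors, 0.955 to 0.980 in *Bbs8*+/+ and 1.02 to 1.05 in *Bbs8*-/- libraries. The common biological coefficient of variation was 0.213. Standard errors (SE) were derived from the quasi-likelihood test, as the absolute log2 fold change divided by the square root of the F statistic. Replicates of a genotype differed by more than sampling noise (chi-square per gene 2.87 to 7.51), and all 8 libraries were counted as replicates. Such a spread can also arise in library preparation, so it cannot show that the libraries are independent. Alternatives were DESeq2 1.42.0, edgeR's likelihood ratio test, library size alone, TMM without marker genes of other tissues, other filters, a replicate block, each library left out, and an adjusted p of 0.01.

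Members and lists were chosen with earlier results of these data known. Genes named were members with an unadjusted p under 0.05, the 3 most abundant of each role, the 3 lowest members, *Ezh1*, *Ezh2*, *Hdac1*, *Hdac2*, *Sirt1*, *Sirt6*, *Ttc8* and partner genes past the threshold; other members were named as paralogs or examples after their values were seen. Promoter sequences are from RefSeq (GRCm38.p6). Protein sequences were not used here.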

Additional observations from a re-analysis of the deposited data

Results flagged for a closer look

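In 82 groups of 4 libraries checked, 2 held a library far from the other 3, with a gap past Dixon's limit for groups of this size. *Ezh2* in *Bbs8*-/- replicate 1 was at 50.9 CPM, against 35.6 to 38.0 CPM in the other *Bbs8*-/- libraries (gap 0.845 of the range). *Kdm4a* in the same library was at 52.1 CPM, against 42.6 to 44.0 CPM (gap 0.854). Chance alone is expected to mark about 1 in 20 such groups, so 2 of 82 is not more than chance gives. Without this library the log2 fold change of *Ezh2* was -0.69 (adjusted p = 0.00996) and that of *Kdm4a* -0.48 (adjusted p = 0.0797), both from edgeR's quasi-likelihood test.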

How the results depend on the processing

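*Kdm5b*, *Hdac7*, *Hdac9*, *Sirt2*, *Kmt2c* and *Kmt2d* were called under all 15 alternative tests, scalings, filters and left-out libraries, as was *Ttc8* (log2 fold change -3.49 to -3.06 with a library left out), whereas *Ezh2*, *Suz12*, *Setd1b*, *Kmt2e*, *Kmt5c* and *Hdac3* each lost their call in some. With library size alone the median log2 fold change of all genes moved from 0.022 to 0.11, 6 members and 3 writers were lower, and the medians were -0.080 for writers and -0.049 for erasers. With a 5 CPM minimum the median of writers was -0.093. At an adjusted p of 0.01, 1 member (an eraser, *Hdac7*) was higher and 5 were lower, 2 of them writers, among 394 higher and 571 lower genes in all. With each library left out in turn, members higher numbered 1 to 2 and lower 7 to 10, erasers higher 1 to 2 and writers lower 3 to 7, with medians of -0.19 to -0.085 for writers and -0.19 to -0.064 for erasers. Signs turned, on leaving out single libraries, for 17 of the 67 members, none of them called (*Setd5* also with library size alone). Of the 36 named by rule these were 5: *Sirt1* (-0.062, -0.098 and -0.12 without *Bbs8*+/+ replicate 1 or *Bbs8*-/- replicate 2 or 3, range -0.12 to 0.24), *Sirt4* (-0.27 and -0.24 without *Bbs8*+/+ replicate 1 or *Bbs8*-/- replicate 1, range -0.27 to 0.40), *Sirt6* (0.037 and 0.060 without *Bbs8*+/+ replicate 1 or 4, range -0.38 to 0.060), *Setd4* (0.14, 0.072 and 0.10 without *Bbs8*+/+ replicate 3 or *Bbs8*-/- replicate 2 or 3, range -1.0 to 0.14) and *Kdm8* (-0.11 without *Bbs8*-/- replicate 2, range -0.11 to 1.15). Their cause was not tested. Same-numbered libraries did not vary together (correlations -0.069 to 0.024), and with the replicate number as a block 2 members were higher and 10 lower, *Setd1b* being lost and *Kdm3b* gained. With marker genes of photoreceptors, lens and erythrocytes kept out of the TMM factors all 12 calls stood and *Ezh1* joined them. The planned term for libraries with and without *Xist* could not be fitted because every library held *Xist*. Depth limits members under 10 CPM, whose median standard error was 0.598 on the log2 scale.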

Other observations

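Genes of the same families on the sex chromosomes lie outside the rule. *Suv39h1*, the X-linked partner of *Suv39h2* in H3K9 trimethylation, was at 21.7, 19.4, 23.7 and 21.9 CPM in the *Bbs8*+/+ libraries and 18.9, 6.81, 13.6 and 7.69 CPM in the *Bbs8*-/- libraries (log2 fold change -0.89, SE 0.306, adjusted p = 0.0487, edgeR's quasi-likelihood test). The genotypes did not overlap. *Xist* was higher in every *Bbs8*-/- library than in any *Bbs8*+/+ library, and its part in this result was not tested. *Kdm6a*, an H3K27 demethylase that escapes X inactivation, was at 25.8 ± 3.68 CPM against 36.7 ± 7.75 CPM (log2 fold change 0.51, SE 0.215, adjusted p = 0.128), and *Kdm5c*, an H3K4 demethylase that also escapes, at 88.6 ± 7.79 CPM against 73.5 ± 2.90 CPM (log2 fold change -0.27, SE 0.135, adjusted p = 0.220). *Hdac6*, the tubulin deacetylase, stood at 18.2 ± 4.65 CPM against 12.8 ± 1.67 CPM (log2 fold change -0.52, SE 0.292, adjusted p = 0.290) and *Hdac8* at 3.75 ± 2.44 CPM against 4.61 ± 1.95 CPM (adjusted p = 0.843). The Y-linked *Kdm5d*, which was detected in all 8 libraries, stood at 13.5 ± 2.41 CPM against 11.9 ± 5.03 CPM (log2 fold change -0.19, SE 0.332, adjusted p = 0.804). Of these 6 genes only *Suv39h1* passed the test, although *Kdm5c* and *Hdac6* were also lower in *Bbs8*-/- libraries without overlap.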
